A study of Mus musculus with 16 samples.

Results

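S100a8, S100a9, Lcn2 and Slpi, 4 genes of secreted antimicrobial and alarm proteins, were followed on every array of a study of mouse hamstring muscle. They were taken by symbol from the study's 18117 measured genes, and each had 1 probe among the 25697 on the array. They had been picked because they were higher with spinal cord injury in these same arrays, so every difference between injured and sham mice given for them is a description and carries no test.

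The 16 arrays, an Illumina expression BeadChip, came from whole muscle of female mice sampled 2 days after surgery, and mouse strain and age are not given in the sources used here. SCI+CDTX mice had a spinal cord injury (SCI) at the thoracic level and cardiotoxin (CDTX), a cobra venom peptide that kills muscle fibres, injected into the muscle. SCI+Saline mice had the cord injury with a saline injection, Sham+CDTX mice had sham surgery with cardiotoxin, and Sham+Saline mice had sham surgery with saline, with 4 arrays in each group. All mice thus had surgery and an intramuscular injection, and no group without either was measured. Bone forms in the muscle only in SCI+CDTX, per the series design, in a model of neurogenic heterotopic ossification. Whether each array holds 1 mouse is not stated in the labels, so p-values measure the spread between arrays.

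S100A8 and S100A9 are small calcium-binding proteins that pair up as calprotectin, which fills the cytoplasm of neutrophils and of newly arrived monocytes. Released from stressed or dying cells, calprotectin binds zinc and manganese and signals through Toll-like receptor 4 and the receptor RAGE. Lipocalin 2, from Lcn2, binds the iron-carrying siderophores of bacteria and is both a neutrophil granule protein and an acute phase protein that other cells make under inflammatory cytokines. Secretory leukocyte protease inhibitor, from Slpi, blocks neutrophil elastase and cathepsin G and protects progranulin from being cut.

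The probes of S100a8 and Lcn2 are shown because each result on these genes rests on a single stretch of 50 bases, printed 5′ to 3′ in the sense of the transcript.
S100a8 probe: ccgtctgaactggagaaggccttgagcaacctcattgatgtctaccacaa
Lcn2 probe: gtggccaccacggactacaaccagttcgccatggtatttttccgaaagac
The S100a8 probe begins at base 59 of its transcript and the Lcn2 probe at base 416, per the deposited annotation. The S100a9 probe begins at base 355 and the Slpi probe at base 1006. The longest run of bases that a member's probe shared with any other probe on the array was 12 for S100a8 and Lcn2 and 13 for S100a9 and Slpi. S100a8 and S100a9 both lie in band 3qF1 of chromosome 3, and Lcn2 and Slpi lie on chromosome 2, in bands 2qB and 2qH3.

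The 250 bases before the start of each gene are shown because the 4 genes are all known to be switched on in myeloid cells, where factors of the C/EBP family act. They come from RefSeq on build GRCm38.p6, as RefSeq held an entry for each of the 4 members. Matches to the C/EBP-like motif TTNNGNAA on either strand are in capitals.
S100a8, chr3:90668821-90669070, plus strand: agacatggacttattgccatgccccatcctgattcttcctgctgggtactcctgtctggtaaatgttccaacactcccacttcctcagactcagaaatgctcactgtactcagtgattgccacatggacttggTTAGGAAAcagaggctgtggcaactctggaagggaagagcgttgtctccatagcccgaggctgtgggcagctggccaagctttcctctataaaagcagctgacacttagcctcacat
S100a9, chr3:90695722-90695971, minus strand: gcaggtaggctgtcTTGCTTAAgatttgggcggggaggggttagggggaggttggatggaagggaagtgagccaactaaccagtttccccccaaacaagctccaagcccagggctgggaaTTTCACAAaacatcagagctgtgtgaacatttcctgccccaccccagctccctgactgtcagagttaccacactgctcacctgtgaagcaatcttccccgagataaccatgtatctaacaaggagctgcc
Lcn2, chr2:32387740-32387989, minus strand: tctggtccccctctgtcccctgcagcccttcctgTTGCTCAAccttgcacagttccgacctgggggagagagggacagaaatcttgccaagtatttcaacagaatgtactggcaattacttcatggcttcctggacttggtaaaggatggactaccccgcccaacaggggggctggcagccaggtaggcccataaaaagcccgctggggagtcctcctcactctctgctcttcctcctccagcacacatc
Slpi, chr2:164356508-164356757, minus strand: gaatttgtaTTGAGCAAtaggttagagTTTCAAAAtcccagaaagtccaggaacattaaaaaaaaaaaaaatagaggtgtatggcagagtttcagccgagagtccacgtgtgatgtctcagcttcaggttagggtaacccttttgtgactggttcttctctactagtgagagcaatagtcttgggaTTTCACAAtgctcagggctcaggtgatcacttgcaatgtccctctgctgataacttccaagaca
The motif matched 1 time before S100a8, 117 to 110 bases from its start, 1 time before Lcn2, 2 times before S100a9 and 3 times before Slpi. Of 32851 such windows in the table, 36.8% held at least 1 match, so a match in a single gene is common. The kappaB-like motif (GGG, any 3 bases, TTCC; 4.65% of windows), the STAT-like motif TTCNNNGAA (7.02%) and the AP-1 motif TGANTCA (6.75%) had no match on either strand in these 4 windows. A match describes letters and no measurement of binding was made.

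Several facts of the arrays touch every result on the 4 genes. All SCI arrays lay on one BeadChip slide and all sham arrays on the other, so slide and surgery cannot be told apart, while each comparison of CDTX with saline lies within a slide. Sham+Saline 4 and SCI+Saline 4 carried marrow-type signal, namely transcripts of neutrophil precursors and of red cell precursors. Camp, a granule peptide of maturing neutrophils, read 847.5 and 867.6 there and at most 120.4 on the other 14 arrays. Ltf, the lactoferrin of secondary granules, read 855.3 and 652.3 there and at most 132.7 elsewhere. Slc4a1, the red cell anion exchanger, read 721.3 and 564.3 there and at most 111.9 elsewhere. Since S100a8, S100a9 and Lcn2 are themselves neutrophil genes, leaving these arrays out is not independent of what is measured, and every test is given with them (15 arrays) and without them (13 arrays). SCI+CDTX 2, which the authors left out of their final analysis, is shown in the values and is in neither fit. The 4 Sham+CDTX arrays and SCI+CDTX 2 also stood apart in how the 2 probes of a gene compared with each other, with a score of 0.28 to 0.39 against -0.27 to -0.07 on the other arrays. Its part in the results was not tested beyond a fit with the score as a covariate. The 10 muscle fibre genes checked were detected on all 16 arrays. Sham+Saline arrays were the dimmest, with a mean intensity of 230.5 to 277 against 319.9 to 373.1 in the other groups, and 11114 to 11850 probes detected against 11555 to 13694.

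**Figure D1:**
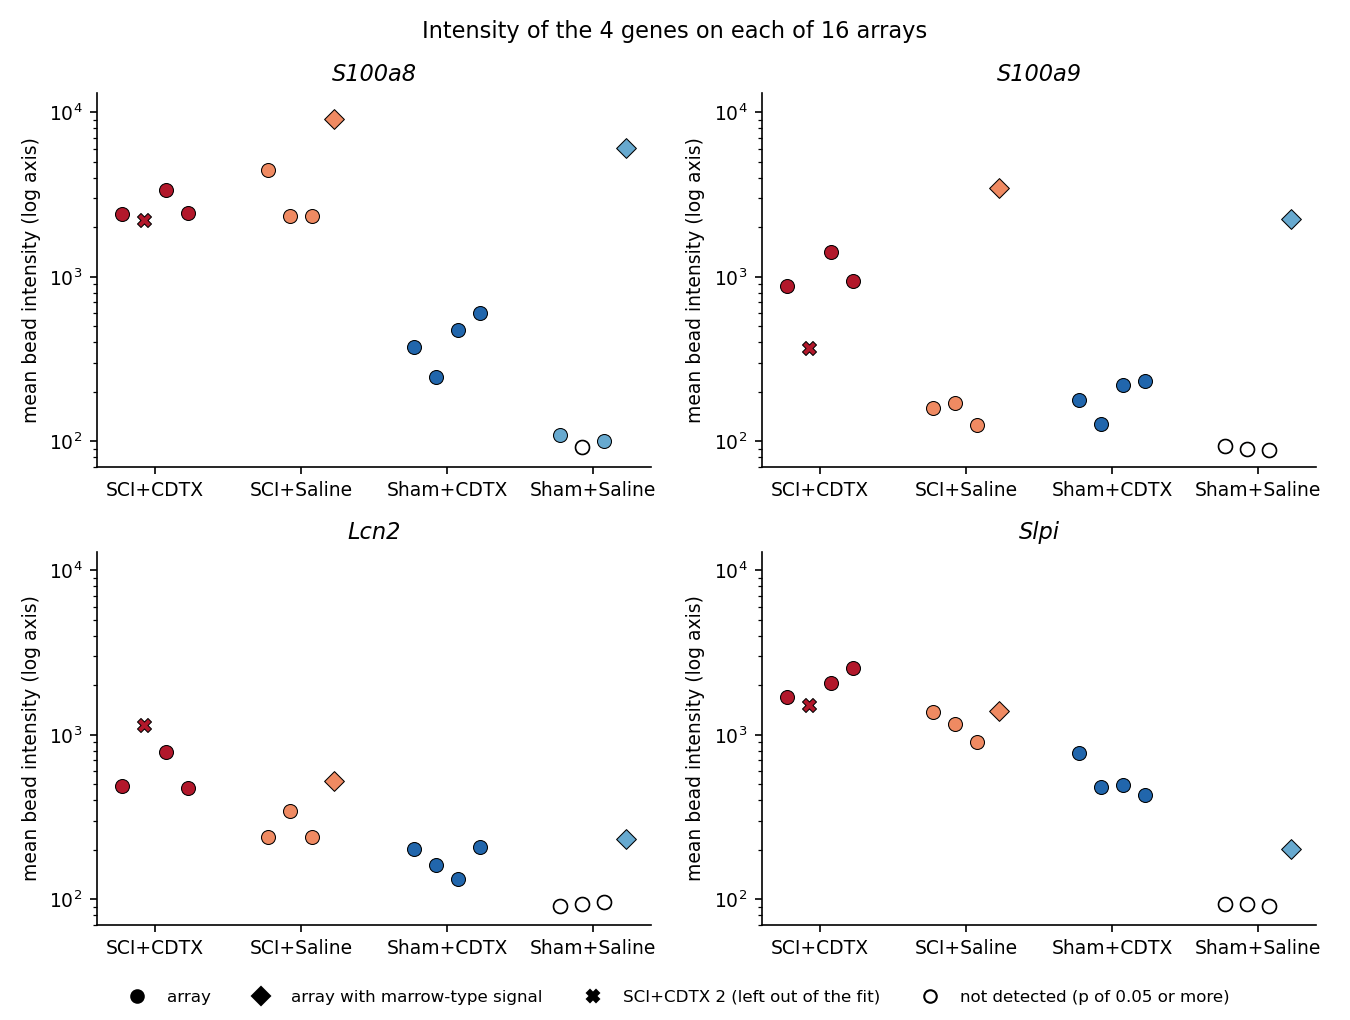
Mean bead intensity (log axis) of S100a8, S100a9, Lcn2 and Slpi on each of 16 arrays in 4 groups. Diamonds are Sham+Saline 4 and SCI+Saline 4, the arrays with marrow-type signal, crosses are SCI+CDTX 2, and open symbols were not detected. S100a8 is as high in SCI+Saline as in SCI+CDTX, while S100a9 on SCI+Saline 1 to 3, at 125.5 to 170, lies near the range of Sham+CDTX, 126.7 to 233.6.

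S100a8, the calprotectin subunit stood high in both cord injury groups and was lower in both sham groups, with 1 exception. Intensity is the mean over the beads of a probe, before normalization, and it was 2394, 2215, 3361 and 2455 on SCI+CDTX arrays 1 to 4. It was 4450, 2345, 2330 and 9092 on SCI+Saline arrays 1 to 4. It was 374.2, 247.1, 476.6 and 602.5 on Sham+CDTX arrays 1 to 4. With sham surgery and saline, S100a8 was close to the background of the array except on array 4: the values were 108.6, 92.5, 99.8 and 6098, and array 2 was not detected (detection p of 0.05 or more). The SCI groups did not overlap with Sham+CDTX, and Sham+Saline 4 was above every array but SCI+Saline 4. With the 2 marrow-type arrays set aside, the order of the groups was SCI+CDTX and SCI+Saline together, then Sham+CDTX, then Sham+Saline, and SCI+CDTX and SCI+Saline overlapped.

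S100a9, the partner subunit, did not follow that order. Its intensity was 882.1, 370.3, 1407 and 945.1 on SCI+CDTX arrays 1 to 4. It was 159.5, 170, 125.5 and 3451 on SCI+Saline arrays 1 to 4. On Sham+CDTX it was 177.5, 126.7, 218.9 and 233.6, so SCI+Saline 1 to 3 and Sham+CDTX overlapped and S100a9 there was below each of the 4 SCI+CDTX arrays. On Sham+Saline it was 93.5, 90.2 and 88.5 on arrays 1 to 3, none of them detected, and 2236 on array 4. On the 3 SCI+Saline arrays without marrow-type signal, then, S100a8 was in or above the range of SCI+CDTX while S100a9 was in or just below the range of Sham+CDTX.

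Lcn2, the siderophore-binding lipocalin, was highest in SCI+CDTX. Its intensity was 490.4, 1149, 790.7 and 476.2 on SCI+CDTX arrays 1 to 4, with array 2, which is outside the fit, the highest of all 16. On SCI+Saline it was 239, 343.4, 238.1 and 527.8, of which array 4 was in the range of SCI+CDTX. It was 202.4, 162.8, 133.2 and 208.6 on Sham+CDTX, below every SCI array. It was 91.4, 93.9 and 96.4 on Sham+Saline 1 to 3, none detected, and 231.4 on Sham+Saline 4. Lcn2 on the marrow-type arrays was within or near the range of other groups, unlike S100a8 and S100a9, which were highest of all arrays there.

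Slpi, the protease inhibitor, was highest in the cord injury groups, lower in Sham+CDTX and lowest in Sham+Saline. Its intensity was 1688, 1519, 2059 and 2540 on SCI+CDTX arrays 1 to 4. It was 1368, 1163, 905.7 and 1398 on SCI+Saline, below every SCI+CDTX array before normalization. That order depends on SCI+CDTX 2, the brightest array by mean intensity: with all 16 arrays normalized together its log2 level of 10.1 was below SCI+Saline 1 and 4, at 10.23 and 10.29, so that the SCI groups overlapped, while SCI+CDTX 1, 3 and 4 were at 10.47 or more. It was 777.9, 484.5, 493.7 and 430.7 on Sham+CDTX. It was 94.1, 93.7 and 91.3 on Sham+Saline 1 to 3, none detected, and 201.9 on Sham+Saline 4, still below every Sham+CDTX array. On both marrow-type arrays, Slpi was the highest of the array's own group, and Sham+Saline 4 lay between the other Sham+Saline arrays and Sham+CDTX.

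Each probe was read from 19 to 56 beads on an array, and the standard error over beads was 1.87% to 6.91% of the intensity. The probe of S100a8 was detected on 15 of 16 arrays and the other 3 on 13 of 16. The authors' deposited table of final results gives a background-subtracted mean of 4185.4 for S100a8 in SCI+Saline and 2461.4 in SCI+CDTX, and of 1747 in Sham+Saline, against 292.4 in Sham+CDTX. For Slpi the authors' deposited table gives 33.7 in Sham+Saline, 404.1 in Sham+CDTX, 1035.1 in SCI+Saline and 1867.9 in SCI+CDTX.

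Cord injury with cardiotoxin was set against sham surgery with cardiotoxin by differences of log2 normalized intensity. S100a8 was higher in SCI+CDTX by 3.31 ± 1.26 (SE, n = 3 and 4 arrays), a fold of 9.92, with means of 11.3 ± 0.37 and 7.99 ± 0.77 (SD). S100a9 was higher by 3.49 ± 1.39, with means of 9.75 ± 0.48 and 6.25 ± 0.77. Lcn2 was higher by 2.54 ± 0.59 and Slpi by 2.36 ± 0.51. None of the 4 genes overlapped between the groups on these arrays, and of all 14763 probes 22% were higher in SCI+CDTX with no overlap. The genes were picked on this difference, so nothing is read from that count. In this comparison 29.8% of 14763 probes passed an adjusted p under 0.05 in either direction (limma) and 14.9% were higher in SCI+CDTX. Neither marrow-type array is in these groups, but each SE comes from a spread shared by all 4 groups, which includes those arrays. Without the marrow-type arrays the differences were 3.29 ± 0.35, 3.48 ± 0.34, 2.54 ± 0.3 and 2.35 ± 0.25 (SE), with 32.3% of probes called and 16.3% higher. With the probe difference score as covariate over all 16 arrays, the values were 3.28 for S100a8, 2.18 for S100a9, 3.93 for Lcn2 and 1.77 for Slpi.

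Cord injury with saline was set against sham surgery with saline. S100a8 was higher in SCI+Saline by 4.74 ± 1.17 (SE, n = 4 and 4), with means of 11.69 ± 1.01 and 6.95 ± 3.88 (SD), and the groups overlapped through Sham+Saline 4. S100a9 was higher by 1.52 ± 1.28, Lcn2 by 2.64 ± 0.55 and Slpi by 4.82 ± 0.48, and only Slpi did not overlap, as did 11.7% of all probes in the same direction. Here 29.5% of probes were called in either direction and 14.8% higher. Without the 2 marrow-type arrays, none of the 4 overlapped, as was so for 17.4% of all probes in the same direction, and S100a8 was higher by 6.19 ± 0.38 (SE, n = 3 and 3). S100a9, Lcn2 and Slpi were not detected on any of the 3 Sham+Saline arrays left. Their differences are therefore lower bounds: S100a9 was at least 2.76-fold higher, Lcn2 at least 7.3-fold and Slpi at least 34.3-fold. Of all probes, 29% were called without those arrays and 14.4% were higher. S100a9 was higher by 0.19 when SCI+Saline 4 alone was left out, and at least 6.94-fold higher when Sham+Saline 4 alone was.

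Cardiotoxin was compared with saline within the cord-injured mice, a comparison that the choice of genes did not use directly but that shares the SCI groups with it. With 15 arrays, 0 of the 4 genes passed in the fit over all probes (limma, adjusted p under 0.05), and 0 did at an unadjusted p under 0.05, while 42.9% of all probes were called and 20.4% were higher. S100a8 differed by -0.39 ± 1.26 (SE, adjusted p = 0.835, 95% interval -3.04 to 2.25), S100a9 by 2.16 ± 1.39 (adjusted p = 0.228) and Lcn2 by 0.75 ± 0.59 (adjusted p = 0.333). Slpi differed by 0.88 ± 0.51 (adjusted p = 0.182) although its groups did not overlap on these arrays, as was so for 22.4% of all probes in the same direction. The interval of S100a8 leaves room for differences in both directions. Without the 2 marrow-type arrays, 3 of 4 passed, where 46.7% of probes were called and 22% were higher. S100a9 rose by 3.48 ± 0.37 (adjusted p = 5.4e-07), Lcn2 by 1.01 ± 0.32 (adjusted p = 0.015) and Slpi by 0.97 ± 0.27 (adjusted p = 0.00597). S100a8 did not pass, at 0.07 ± 0.38 (adjusted p = 0.902, 95% interval -0.73 to 0.86). Setting aside SCI+Saline 4 alone gave 3.49 for S100a9 (adjusted p = 0.0243) and setting aside Sham+Saline 4 alone gave 0.88 for Slpi (adjusted p = 0.00894). S100a8 turned to 0.07 without SCI+Saline 4 alone.

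Within the sham mice, cardiotoxin raised 1 of the 4 genes with 15 arrays, against 48.9% of probes called and 23.1% higher. The gene was Slpi, by 3.35 ± 0.48 (SE, limma adjusted p = 1.19e-05, n = 4 and 4). S100a8 differed by 1.03 ± 1.17 (adjusted p = 0.491), S100a9 by 0.19 ± 1.28 (adjusted p = 0.919) and Lcn2 by 0.85 ± 0.55 (adjusted p = 0.214), with the groups overlapping through Sham+Saline 4. S100a9, Lcn2 and Slpi were detected on 1 of the 4 Sham+Saline arrays. The choice of genes did not use this comparison directly, but the comparison shares the sham groups with it. A gene picked as higher with cord injury is more readily one that is low in Sham+Saline, so the calls here are not independent of that choice. Without the marrow-type arrays all 4 passed, where 50.1% of probes were called and 23.2% were higher. S100a8 rose by 2.96 ± 0.35 (adjusted p = 1.62e-06), a fold of 7.8. S100a9 was at least 2.76-fold higher (adjusted p = 0.000107), Lcn2 at least 2.53-fold (adjusted p = 0.000146) and Slpi at least 13.2-fold (adjusted p = 5.93e-10). Setting aside Sham+Saline 4 alone gave 2.97 for S100a8 (adjusted p = 3.29e-05) and put Lcn2 at least 2.53-fold higher (adjusted p = 0.000547). S100a9 turned negative, between -0.41 and -0.04, when Sham+CDTX 4 or Sham+Saline 1, 2 or 3 was left out. With the probe difference score as covariate over all 16 arrays, Slpi was higher by 3.97 (adjusted p = 0.0294) and Lcn2 differed by -0.96 (adjusted p = 0.681).

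The difference between the 2 cardiotoxin effects, SCI minus sham, is a description because it contains the surgery differences the genes were picked on. It was -1.43 ± 1.72 (SE) for S100a8, 1.97 ± 1.89 for S100a9, -0.1 ± 0.81 for Lcn2 and -2.47 ± 0.7 for Slpi with 15 arrays. Single arrays moved these values: without Sham+Saline 4 it was -3.36 for S100a8 and without Sham+Saline 2 it was -0.6, and leaving out 1 array at a time gave 0.2 to 3.3 for S100a9, the lowest without Sham+Saline 4 and the highest without SCI+Saline 4. Lcn2 ranged from -0.91 to 0.2, on both sides of 0, and Slpi from -3.22 to -2.19. Without both marrow-type arrays it was -2.9 ± 0.52 for S100a8. S100a9, Lcn2 and Slpi are given no value without both here. With Sham+Saline 4 left out, their cardiotoxin effect in sham mice is a lower bound, and the sign for S100a9 is then not settled. Their values above without Sham+Saline 4 alone, such as 0.2 for S100a9, rest on arrays that did not detect the gene. Neither these values nor their order was tested.

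**Figure D2:**
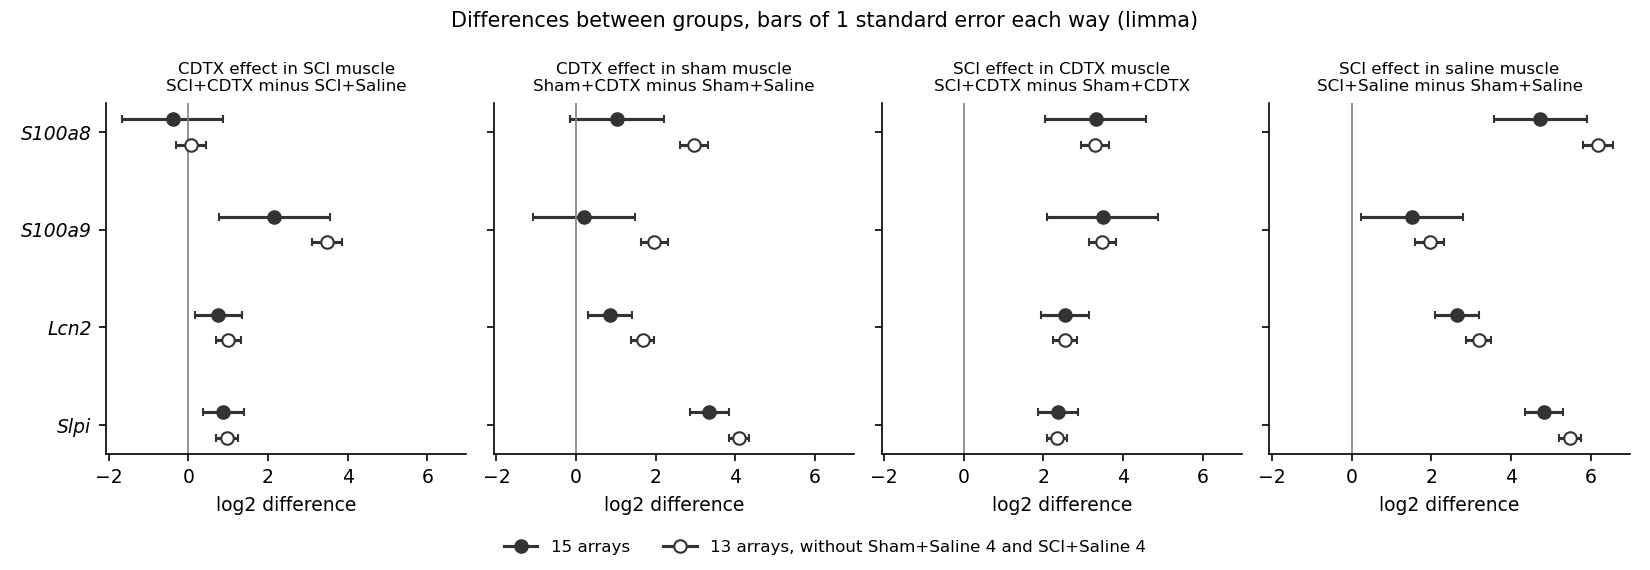
Differences of log2 normalized intensity between groups for the 4 genes, with bars of 1 standard error each way from limma, in the 4 comparisons. Filled circles use 15 arrays and open circles 13 arrays, without Sham+Saline 4 and SCI+Saline 4. S100a8 lies near 0 for cardiotoxin in SCI muscle (-0.39 and 0.07), where S100a9 moves from 2.16 to 3.48 when the marrow-type arrays are left out. Open circles for S100a9, Lcn2 and Slpi against Sham+Saline are set against arrays that did not detect the gene.

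Lists of genes for the cell types that could carry the members were read on the same arrays, with counts at an adjusted p under 0.05 (limma) over all probes. Their medians over the kept genes stand beside all-probe medians of -0.05 for cardiotoxin in SCI, -0.04 for cardiotoxin in sham, 0.01 for SCI in cardiotoxin and -0.01 for SCI in saline muscle. In that order, 20.4%, 23.1%, 14.9% and 14.8% of all probes were called higher on 15 arrays, and 42.9%, 48.9%, 29.8% and 29.5% in either direction. A count near these shares is not read as a result about its list. Of 20 surface and mature neutrophil genes, such as the granulocyte colony-stimulating factor receptor Csf3r and the resistin-like gene Retnlg, 15 were kept, and Ly6g had no probe. Of the others not kept, Mmp8 and Padi4 were detected on 0 arrays, Cxcr2 on at most 1 and Fpr1 on at most 3. Cardiotoxin raised 11 and lowered 0 of the 15 in cord-injured mice (median 1.32), with Clec4d, Alox5ap and Fpr2 higher by 3.5, 2.7 and 2.66. In sham mice 8 rose and Trem1 alone was called lower (median 1.32), with Clec4d, Alox5ap and Retnlg higher by 4.02, 2.87 and 2.84. Trem1 was near background, at 98.2 to 120.8 on Sham+CDTX and 95.9 to 115.4 on Sham+Saline before normalization. It did not pass without the marrow-type arrays (limma adjusted p = 0.0699). Cord injury raised 4 and lowered 0 with cardiotoxin (median 0.56), among them Fpr2 by 2.04 and the decoy receptor Il1r2 by 1.13, and 0 of 15 were called with saline (median 0.15). With the marrow-type arrays left out, the counts higher were 14, 10, 6 and 1 in these 4 comparisons, and 1 gene was lower, Pglyrp1 with cord injury in cardiotoxin mice.

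Summed over the 15 genes, the normalized intensity was 2257 to 6902 on the 4 SCI+CDTX arrays, 2913 to 3933 on Sham+CDTX, 513.3 to 1417 on SCI+Saline 1 to 3 and 596.8 to 692.2 on Sham+Saline 1 to 3. It was 2664 on SCI+Saline 4 and 2563 on Sham+Saline 4. On the CDTX arrays 1 gene, Alox5ap, was the largest part of the sum. Before normalization Alox5ap read 1399 to 3646 on SCI+CDTX and 1569 to 2353 on Sham+CDTX, and every other kept gene of the list at most 1053 there. On SCI+Saline 2 Alox5ap read 807.6 and the others at most 202. SCI+Saline 2, at 1417, was above each of Sham+Saline 1 to 3 in this sum, as was SCI+Saline 1 at 818.7, and SCI+Saline 3, at 513.3, was below them. Of the 15 genes, 11, 10 and 4 were detected on SCI+Saline 1, 2 and 3, against 6, 6 and 7 on Sham+Saline 1, 2 and 3. Fewer cells of a type and less RNA per cell cannot be told apart in whole muscle.

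Of 13 neutrophil granule and precursor genes 9 were kept, and all 9 were detected on both marrow-type arrays and 0 to 7 on any other. The sum was 2779 on Sham+Saline 4 and 2614 on SCI+Saline 4, against 1444 to 2125 on SCI+CDTX, 495.9 to 676.6 on Sham+CDTX, 224.5 to 613.1 on SCI+Saline 1 to 3 and 190.9 to 216.8 on Sham+Saline 1 to 3. On SCI+CDTX the sum was mostly that of 1 gene, Chil3, a chitinase-like gene also made by macrophages. Before normalization Chil3 read 1508 to 2584 there, and every other kept gene of the list at most 132.7. Cardiotoxin raised 1 of the 9 in each type of mouse, Chil3, by 3.3 in cord-injured and 3.07 in sham mice, and cord injury called 0 with either injection on 15 arrays. The medians were -0.54, -0.44, 0.25 and 0.16 in the order given above, and without the marrow-type arrays, where 7 were kept, cardiotoxin raised 2 in each type of mouse and lowered 1 in sham mice. Cord injury then raised 2 with cardiotoxin and 1 with saline, where Chil3 rose by 1.96 (adjusted p = 0.00657) and 2.07 (adjusted p = 0.0083). The red cell precursor genes, 7 kept of 19, summed to 16417 on SCI+Saline 4 and 17664 on Sham+Saline 4, and to 3779 to 9254 on the other arrays. The B lineage genes, 6 kept of 13, summed to 352.1 on Sham+Saline 4 and 253.4 on SCI+Saline 4, and to 148.4 to 312 elsewhere.

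Monocyte and macrophage genes rose with cardiotoxin. Of 12 kept of 14, 11 rose and 0 fell in cord-injured mice (median 2.24) and again in sham mice (median 3.02), with Lyz2 (lysozyme) higher by 3.51 and 3.89 and Cd68 by 2.75 and 4.61. Their sum was 10881 to 22653 on the 8 CDTX arrays, 1091 to 3214 on SCI+Saline 1 to 3 and 1365 to 1695 on Sham+Saline 1 to 3. Cord injury raised 2 and lowered 1 with cardiotoxin, changing Cd14 by 1.85 and Mrc1 by -1.02 (median -0.11), and raised 3 with saline, Cd68 by 1.82 (median 0.51). Of 14 keratinocyte and epithelial genes 4 were kept, and the keratin Krt5 was detected on 0 arrays. Krt10 was detected on 16 arrays, Cdh1 and Trp63 on 15 and Sprr1a on 8. Cardiotoxin lowered 2 and raised 0 of the 4 in each type of mouse. Cord injury raised 1 and lowered 1 with cardiotoxin, and with saline it raised Trp63 alone, by 1.38 (limma adjusted p = 7.15e-05). The part of these cell types in the member results was not tested.

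**Figure D3:**
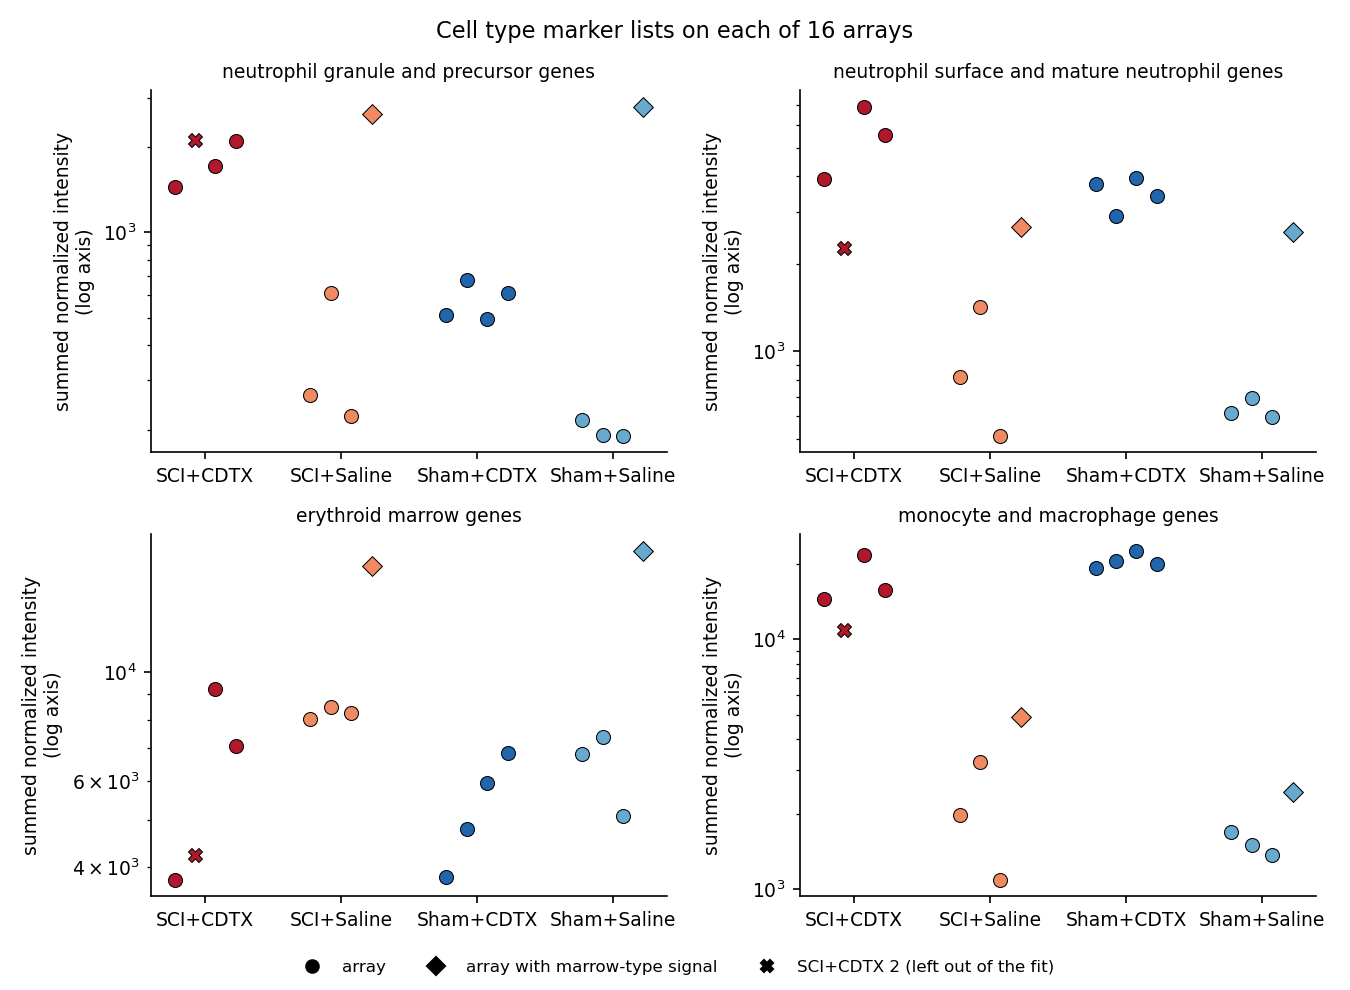
Summed normalized intensity (log axis) of 4 marker lists on each of 16 arrays, with Sham+Saline 4 and SCI+Saline 4 as diamonds and SCI+CDTX 2 as a cross. The granule and red cell precursor lists are highest on the 2 diamonds, at 2614 and above and 16417 and above, and the macrophage list is at 10881 or more on the CDTX arrays and at 4881 or less on the saline arrays. On SCI+CDTX the granule list is mostly Chil3, which read 1508 to 2584 before normalization, with the other kept genes at 132.7 or less.

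Of 14 other S100 genes, 8 were kept. Cardiotoxin raised 4 and lowered 1 in cord-injured mice and raised 5 and lowered 1 in sham mice, and cord injury raised 3 with cardiotoxin and 4 with saline and lowered 0. The medians were 0.49, 1.26, 0 and 0.45 in the order given above, and 20.4%, 23.1%, 14.9% and 14.8% of all probes were called higher. S100a4, a calcium-binding gene of motile cells, rose by 2.68 and 2.95 with cardiotoxin and by 1.09 and 1.36 with cord injury. S100a10, the partner of annexin A2, rose by 1.12 and 1.75 with cardiotoxin, and by 0.67 and 1.3 with cord injury. S100a11 rose by 2.03 and 2.19 with cardiotoxin and gave 0.06 and 0.22 with cord injury (adjusted p = 0.897 and 0.493). S100a1, the S100 gene of muscle fibres, fell by 0.96 and 1.14 with cardiotoxin.

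Of 15 genes of the receptors, partners and targets of the members, 12 were kept. Cardiotoxin raised 5 in cord-injured and 6 in sham mice and lowered 0, and cord injury raised 2 with cardiotoxin and 3 with saline, where the lipocalin receptor gene Slc22a17 was called lower. Slc22a17 was near background, detected on 1 of 4 SCI+Saline and 3 of 4 Sham+Saline arrays. Before normalization it was not lower with cord injury, at 101 to 111.1 on SCI+Saline and 96.5 to 107.3 on Sham+Saline. The medians were 0.61, 0.15, 0.27 and 0.13, and 20.4%, 23.1%, 14.9% and 14.8% of all probes were called higher. Cd14, the co-receptor of Toll-like receptor 4, rose by 2.81 and 1.67 with cardiotoxin and by 1.85 with cord injury in cardiotoxin mice. Tlr4 rose by 0.71 and 1.52 with cardiotoxin and by 0.89 with cord injury in saline mice. Grn, whose product progranulin Slpi protects, rose by 2.77 and 2.69 with cardiotoxin. The proteases that Slpi blocks were near background apart from the marrow-type arrays: Elane, neutrophil elastase, read 209.2 on Sham+Saline 4 and 306.1 on SCI+Saline 4 and at most 115 on the other 14, and Ctsg read 152.9, 312.7 and at most 109.9.

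Of 22 genes for WAP-domain proteins and protease inhibitors, 13 were kept. Cardiotoxin raised 4 and lowered 1 in cord-injured and raised 7 and lowered 1 in sham mice, while cord injury raised 1 and lowered 2 with cardiotoxin (3 and 2 without the marrow-type arrays) and raised 4 and lowered 1 with saline. The medians were 0.18, 0.59, 0.1 and 0.48, and 20.4%, 23.1%, 14.9% and 14.8% of all probes were called higher. Serpina3n, a serine protease inhibitor of the acute phase, rose by 2.23 and 2.02 with cardiotoxin and by 2.66 and 2.45 with cord injury. Wfdc1 was the gene that fell with saline, by 1.55. Wfdc17, a WAP-domain gene of activated macrophages, rose by 2.52 and 3.45 with cardiotoxin and gave 0.19 and 1.12 with cord injury (adjusted p = 0.818 and 0.055). Timp1, an inhibitor of matrix metalloproteinases, rose by 2.9 and 3.04 with cardiotoxin and by 1.47 with cord injury in saline mice.

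Of 22 acute phase and iron-handling genes, 19 were kept, and they did not move as one. Cardiotoxin raised 5 and lowered 2 in cord-injured and raised 6 and lowered 3 in sham mice, cord injury raised 6 and lowered 2 with cardiotoxin and raised 5 and lowered 3 with saline. The median difference lay between 0.02 and 0.07 in the 4 comparisons, where 20.4%, 23.1%, 14.9% and 14.8% of all probes were called higher. The metallothioneins, small zinc-binding proteins, rose most with cord injury in saline mice: Mt1 by 3.49 (adjusted p = 1.07e-11) and Mt2 by 3.35, while Tfrc, the transferrin receptor, fell by 2.32. Saa3, an acute phase apolipoprotein, was detected on 0 of 4 Sham+Saline arrays. It rose by 3.38 with cardiotoxin in cord-injured mice and by 2.32 with cord injury in cardiotoxin mice, and against Sham+Saline it was at least 4.64-fold higher in Sham+CDTX and at least 2.22-fold in SCI+Saline. Hp, haptoglobin, rose by 2.99 and 1.54 with cardiotoxin and by 1.51 with cord injury in cardiotoxin mice, and gave 0.07 with cord injury in saline mice (adjusted p = 0.899).

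Of 24 genes of cytokines, cytokine receptors, transcription factors and signalling proteins linked to the members, 19 were kept. The list also holds inhibitors of these signals, Nfkbia, Socs3 and Irak3, so a gene counted as raised need not switch the members on. Socs3, for one, rose by 1.56 with cardiotoxin in cord-injured mice and by 1.91 with cord injury in cardiotoxin mice. Cardiotoxin raised 11 and lowered 0 in cord-injured and raised 11 and lowered 1 in sham mice, cord injury raised 11 and lowered 1 with cardiotoxin and raised 6 with saline, where it lowered 0. The medians were 0.63, 0.51, 0.5 and 0.2, and 20.4%, 23.1%, 14.9% and 14.8% of all probes were called higher. Il1b, interleukin 1 beta, read 171 to 673.2 on SCI+CDTX, 115.7 to 137.6 on Sham+CDTX, 99.4 to 107.9 on SCI+Saline 1 to 3 and 86.8 to 93.5 on Sham+Saline 1 to 3. It was detected on none of those 6 saline arrays. Il1b rose by 3.46 with cardiotoxin in cord-injured mice and by 2.96 with cord injury in cardiotoxin mice, and did not pass with cord injury in saline mice (adjusted p = 0.456). Nfkb2 rose by 1.89, Relb by 1.5 and Cebpb, a C/EBP factor, by 1.23 with cord injury in saline mice. Of Il6, Il1a, Il17a and Il22, none was detected on more than 2 arrays.

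The genes whose level over the arrays was most like each member were named by Pearson correlation of log2 intensity, as a description, since the arrays share group structure and slides. Over 13 arrays, Slpi was closest to Mt1 (r = 0.989), then Uck2, the histone H3c13 and the DNA clamp Pcna (each r = 0.973). Over 15 arrays Mt1 was still first (r = 0.962). Mt1 read 12615 to 19397 on SCI+CDTX, 11234 to 16878 on SCI+Saline 1 to 3, 5573 to 7434 on Sham+CDTX and 746.5 to 920.1 on Sham+Saline 1 to 3, in the same order of groups as Slpi. The 2 marrow-type arrays read 13824 on SCI+Saline 4 and 1354 on Sham+Saline 4, the values of their own groups or near them. Mt1 rose with cardiotoxin in sham mice by 2.26 and did not pass in cord-injured mice (0.11, adjusted p = 0.618).

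S100a8 was closest over 15 arrays to Chil1 (r = 0.868), a chitinase-like secreted glycoprotein, and over 13 arrays to LOC100047935 (r = 0.979), Pum3, Tgif1, Chil1 and Ankrd1 (r = 0.954 for both of the last). Chil1 read 225.4 to 466.7 on SCI+CDTX, 229 to 284.5 on SCI+Saline 1 to 3, 140.9 to 155.5 on Sham+CDTX and 91.2 to 96.5 on Sham+Saline 1 to 3. Ankrd1, a stress-responsive muscle ankyrin repeat gene, read 5534 to 8112 on SCI+Saline 1 to 3 and 2398 to 4020 on SCI+CDTX. S100a9 was closest over 15 arrays to Ear2 (r = 0.932), Ear4, Cd79b and Trem3, and over 13 to Brk1 (r = 0.962), Upp1, Srgn and Serpina3n. Ear2, an eosinophil-type ribonuclease, read 403 and 425.8 on the marrow-type arrays, where it was above the 105.7 to 364.1 of the other 14. Lcn2 was closest over 15 arrays to Polr1c (r = 0.901) and over 13 to Cryab (r = 0.95), the small heat shock protein of muscle.

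Among the members themselves, r over 13 arrays was lowest between S100a8 and S100a9 at 0.779, whose genes are neighbours on chromosome 3 and whose proteins pair up, and highest between S100a8 and Slpi at 0.937. Over 15 arrays the lowest was 0.632, between S100a9 and Slpi, and S100a8 and S100a9 had 0.837. The 2 marrow-type arrays are high for S100a8 and S100a9 together.

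**Figure D4:**
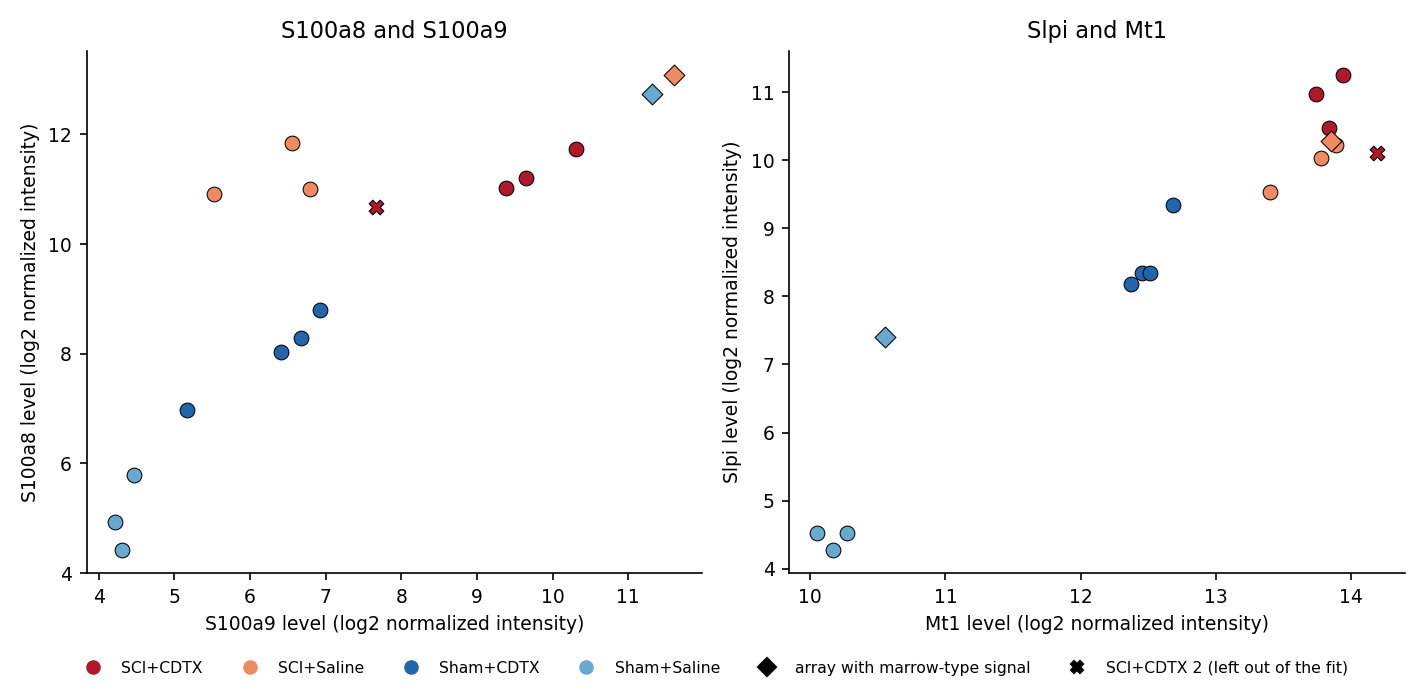
Levels of S100a8 against S100a9 (left) and of Slpi against Mt1 (right) as log2 normalized intensity on 16 arrays, each point an array, diamonds the marrow-type arrays and the cross SCI+CDTX 2. On the left, SCI+Saline 1 to 3 stand at a high S100a8 level with an S100a9 level like Sham+CDTX, and on the right the arrays form the order Sham+Saline, Sham+CDTX and the SCI groups.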

How the data were processed

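The authors scanned biotin-labelled cRNA on an Illumina BeadChip and read it with GenomeStudio 2011.1 (gene expression module 1.9.0), per the submitters' processing notes and the file headers. The deposited table without normalization holds mean bead intensity, a detection p-value, bead counts and their standard error, per the file headers. The authors also deposited average-normalized, background-subtracted intensity with a mean per group.

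Here, neqc of limma corrected the background of 15 arrays (SCI+CDTX 2 left out, as by the authors), quantile normalized them and gave log2 values with offset 16 (limma 3.58.1, R 4.3.3, R package data.table, version 1.17.8; figures with matplotlib 3.10.9). The offset understates differences of dim probes. The fit used the 14763 probes (10952 genes) detected at p under 0.05 on 3 or more arrays. One linear model over 4 group means was fitted with empirical Bayes, with Benjamini-Hochberg adjustment over all kept probes. A fold against a group with no detected array is a lower bound, taken against the dimmest signal that counted as detected on each of its arrays, or the probe's own signal if higher. Mean beads per probe were 33.3 to 38.9, and array numbers limit the precision. The code was checked on simulated data.

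Named genes are the members, up to 3 called genes of each list with the largest difference per comparison, and 5 correlation neighbours of each member; other genes of the lists were named after their values were seen. Members and lists were chosen with earlier results of these data known. Same-numbered arrays were checked for pairing: over 21 pairs their deviations from the group means correlated at -0.27 to 0.38, with 3 pairs above 0.1, so the numbers were not taken to pair arrays.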

Additional observations from a re-analysis of the deposited data

Results flagged for a closer look

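In groups of 4 arrays, 1 array stood apart from the other 3, by Dixon's criterion, in 10 of 44 groups checked. The criterion sets the gap to the nearest array against the range, so a small gap can be flagged where the others lie close together. Chance flags about 1 in 20 independent groups, but these genes and lists were read on the same arrays, so the count is not set against that rate. For the 4 members, Sham+Saline 4 stood apart from the other Sham+Saline arrays at a log2 normalized intensity of 12.72 for S100a8, 11.3 for S100a9, 7.66 for Lcn2 and 7.37 for Slpi. Slpi stood apart on Sham+CDTX 1 at 9.31.

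The same array, Sham+Saline 4, stood apart in the summed intensity of neutrophil surface genes at 2563, of neutrophil granule genes at 2779 and of B lineage genes at 352.1. SCI+Saline 4 stood apart in the red cell precursor genes at 16417. The keratinocyte genes stood apart on Sham+Saline 2 at 300.3, by a small gap, as the other Sham+Saline arrays were at 310.8 to 312.8.

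SCI+CDTX 2, which is in neither fit, read 9.65 for Lcn2 and 10.1 for Slpi on the log2 scale with all 16 arrays normalized together, above the highest Sham+Saline array at 7.7 and 7.41.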

How the results depend on the processing

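Precision was limited by 3 or 4 arrays a group and, in Sham+Saline, by signals at background; all values are log2 differences unless called counts. Over 14 alternatives (13 for the difference of the cardiotoxin effects), S100a8 and Slpi kept their direction, except S100a8 for cardiotoxin in SCI muscle.

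Without both marrow-type arrays, cardiotoxin in SCI muscle gave 0.07 for S100a8, 3.48 for S100a9, 1.01 for Lcn2 and 0.97 for Slpi, and in sham muscle 2.96, 1.96 and 1.67 for the first 3 (S100a9, Lcn2 and Slpi were not detected in Sham+Saline without array 4, so fitted values there depend on the offset). Keeping SCI+CDTX 2 as well (an alternative chosen after seeing the data) gave 2.95, 1.24 and 0.76 for S100a9, Lcn2 and Slpi in SCI, 2.98, 1.99 and 1.7 for S100a8, S100a9 and Lcn2 in sham, -3.37 for the Slpi difference between the effects, and 2664 probes called for SCI in CDTX muscle. Here too the Slpi difference and the S100a9 and Lcn2 values in sham depend on the offset. All 16 arrays gave 2613 probes called for SCI in CDTX muscle and 0.11 for the Lcn2 difference.

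Without background correction, Slpi for cardiotoxin in SCI was 0.84 (called), S100a9 in sham -0.47, S100a9 and Lcn2 for SCI in CDTX muscle 2.53 and 1.66, Lcn2 and Slpi for SCI in saline muscle 1.29 and 3.1, and the Lcn2 and Slpi differences 0.37 and -0.97. An offset of 50 gave -0.33 for S100a9 in sham and 0.28 and -1.53 for these differences. With only the groups compared, Slpi in SCI was called at 0.88 (adjusted p = 0.011, limma). With the probe difference score, Lcn2 in sham was -0.96, S100a9, Lcn2 and Slpi for SCI in CDTX muscle 2.18, 3.93 and 1.77, the Lcn2 difference 1.43, and the counts called 3094 for cardiotoxin in sham and 262 for SCI in CDTX muscle. Beyond the removed arrays or samples, the cause was not tested.

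Leaving out 1 array at a time, cardiotoxin in SCI ranged from -0.66 to 0.07 for S100a8, 1.45 to 3.49 for S100a9, 0.44 to 1.01 for Lcn2 and 0.71 to 1.11 for Slpi, and in sham from 0.21 to 2.97, -0.41 to 1.96, 0.55 to 1.66 and 3.07 to 4.1. The difference of the effects ranged from -3.36 to -0.6 for S100a8, 0.2 to 3.3 for S100a9 and -0.91 to 0.2 for Lcn2. In these ranges, the values of S100a9, Lcn2 and Slpi in sham and in the difference depend on the offset where Sham+Saline 4 was left out.

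With the replicate number as a block, the cardiotoxin effect in SCI was -0.87, 1.75, 0.67 and 0.79 for S100a8, S100a9, Lcn2 and Slpi, and no call or direction changed.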
